A study of Mus musculus with 18 samples.

Results

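The question here was whether AOS changed kidney transcripts by a different amount in mice on a high fat diet with STZ than in untreated mice. For each gene the AOS effect in control kidneys (AOS minus control) was subtracted from the AOS effect in HS kidneys (HS_AOS minus HS), and a value of 0 means that both effects were equal. The comparison used 12 of the 18 sequenced kidney samples and 11985 of the 19545 genes in the table, those that reached 1 FPKM in 3 or more of the 9 libraries other than control. FPKM counts the sequenced fragments of a gene, scaled to the length of its transcript and the size of the library. Differences are between means of log2(FPKM + 1), a scale that makes the change of low genes look smaller.

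All samples were kidneys of ICR mice, an outbred stock, aged 10 weeks. Control mice had no treatment, AOS mice received AOS at 10 mg/kg, HS mice had a high fat diet and STZ (streptozotocin, a toxin of pancreatic beta cells), and HS_AOS mice had the diet, STZ and AOS, with 3 samples in each group. The labels do not spell out what AOS is. Whether the 3 samples of 1 group were 3 different mice is not stated, and the p-values cover no more than the spread seen among them. A further 6 HS samples with a faecal microbiota transplant entered the model only to estimate that spread.

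The proximal tubule makes up most of the kidney cortex. It reabsorbs glucose, amino acids, bicarbonate and other solutes from the filtrate, and it draws most of its energy from the oxidation of fatty acids. PPARA, a nuclear receptor bound by fatty acids, raises the transcription of the genes of that pathway in fasting. The circadian clock sets a daily rhythm on many tubular transporters and metabolic enzymes.

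Kidney markers were present in all 12 libraries. Slc34a1, the sodium phosphate cotransporter of the proximal tubule, lay between 1762 and 3041 FPKM, and Umod, the uromodulin of the thick ascending limb, between 218 and 1032 FPKM. Library control 3 stood apart from the rest, with Pearson correlations of log2 levels of 0.949 to 0.967 with the other 11. Its Kap, a proximal tubule transcript that androgens regulate, was listed at 15798 FPKM against at least 66020 in every other library, its injury marker Havcr1 at 19.4 FPKM against at most 5.30, and its 15 macrophage and monocyte markers summed to 1365 FPKM against at most 909. The adrenal enzyme Cyp11b1 was at 118 FPKM in control 3 and 38.3 in HS 3, against 0 to 0.15 in the other 10 libraries. Adipose markers summed to 1806 FPKM in HS 3 and to 115 to 814 elsewhere. Several results that rest on control 3 are therefore given with and without it. In whole tissue, a lower value can come from fewer cells of a type or from less RNA per cell, and these cannot be told apart.

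No gene passed the test of a difference between the 2 AOS effects: 0 of 11985 genes did so in limma (0%), with the smallest adjusted p at 0.116. At an unadjusted p under 0.05 there were 1834 genes (15.3%), of which 1334 (11.1% of those tested) lay above 0 and 500 (4.17%) below. The 2 effects taken singly gave another count. In HS, AOS changed 325 genes (2.71%), of which 157 rose (1.31%) and 168 fell (1.4%), or 291 and 208 after quantile normalization. In control kidneys 0 genes passed, with 871 at an unadjusted p under 0.05 (7.27%). Passing in HS and not in control does not show a difference, and the direct test of that difference called none. The standard error of the difference had a median of 0.19 and the 95% interval a median half-width of 0.41, so that 9836 genes had an interval that lay within 1 log2 unit of 0.

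These counts depended on the libraries and on the weights given to them. Leaving out HS 2 or HS 3 brought the 325 genes changed by AOS in HS to 0, leaving out HS_AOS 3 to 17 and HS_AOS 2 to 76, and a fit on the 4 groups alone gave 0. Leaving out AOS 1, 2 or 3 gave 145, 160 and 152, and leaving out control 3, HS 1 or HS_AOS 1 gave 853, 548 and 824. For the difference itself, 9 genes passed without HS 1, 8 without HS_AOS 1, 2 without HS_AOS 2 and 1 without control 1. With array weights, by which limma gives less weight to libraries far from their group, 2203 genes passed the difference (1267 above 0, 10.6%, and 936 below 0, 7.81%). Those weights ran from 0.109 for control 3 to 7.98 for HS_AOS 2, while HS_AOS 1 and 3 had 0.35 and 0.385. With array weights and without control 3 the count was 1090, and without the adrenal-rich libraries control 3, HS 3 and HS_AOS_FMT 2 it was 0. Each of these weighted fits without control 3 stopped before convergence, and the fit that gave 2203 did not.

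The genes AOS changed in HS had small values in control kidneys. Over the 157 genes raised in HS, the median AOS effect in control was -0.01 and 74 (47.1%) lay above 0. Over the 168 lowered in HS, the median in control was -0.04 and 52 (31%) lay above 0. All tested genes had a median of -0.09 in control, with 26.9% above 0. Across the 11985 genes, which are not independent, the Pearson correlation of the 2 effects was 0.158 and the Spearman correlation 0.098. The 2 effects share no library.

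**Figure D1:**
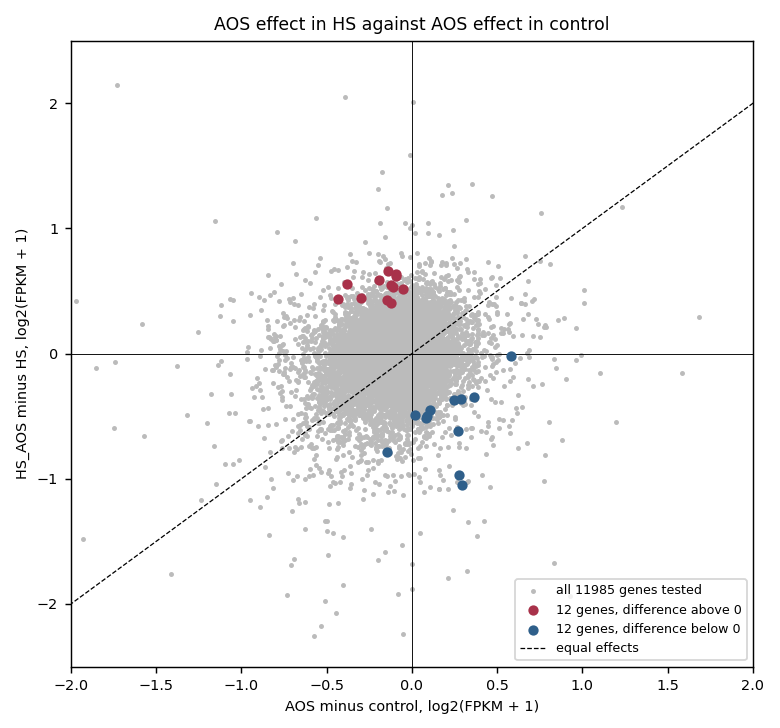
Each grey point is 1 of the 11985 genes, with the AOS effect in control kidneys on the x axis and the AOS effect in HS kidneys on the y axis, both as log2(FPKM + 1) differences of group means of 3 libraries; 8 genes lie outside the axes. The 24 coloured genes had the smallest p for the difference in each direction; 23 of them have effects of opposite sign, and the cloud shows no line along the dashed diagonal of equal effects.

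Since no gene passed, the 12 genes above 0 and the 12 below 0 with the smallest p are described as values that did not pass, with adjusted p from 0.116 to 0.167. Of these 24, 20 passed for AOS in HS and 0 for AOS in control. In 23 of them the 3 HS_AOS libraries did not overlap the 3 HS libraries, in 10 AOS did not overlap control, and in 15 HS_AOS overlapped none of the other 9. Over all tested genes, HS_AOS and HS did not overlap in 25.1% and AOS and control in 13.1%, and HS_AOS lay above the other 9 libraries in 3.95% and below them in 2.47%. The genes were chosen by the same contrast, so these counts describe them and support nothing.

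Itch, a HECT ubiquitin ligase that tags signalling proteins for degradation (chromosome 2, 155133481 to 155226855, GRCm38), had the smallest p. It stood at 18.23, 19.16 and 21.60 FPKM in control, 16.74, 17.17 and 17.18 in AOS, 20.11, 16.26 and 17.40 in HS and 25.96, 29.42 and 27.01 in HS_AOS. All 3 HS_AOS libraries were above the other 9, which lay close together. The difference of the AOS effects was 0.79 (SE 0.128, 95% interval 0.51 to 1.06, adjusted p = 0.116). AOS raised Itch in HS by 0.59 (adjusted p = 0.0145), and its value in control was -0.19 (adjusted p = 0.674).

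Several of the other genes above 0 showed the same form, with HS_AOS as the high group. Fcho2, an endocytosis factor, had 28.39, 26.61 and 31.52 FPKM in HS_AOS against 17.58 to 22.61 in the other 9 libraries, and a difference of 0.71 (SE 0.135). Rcn2, a calcium-binding protein of the endoplasmic reticulum, had 13.36, 15.35 and 14.20 FPKM against 7.45 to 10.10, and a difference of 0.67 (SE 0.133). Pank3, a pantothenate kinase of coenzyme A synthesis, had 21.27, 21.04 and 27.94 FPKM against 13.69 to 16.61, and a difference of 0.73 (SE 0.149). Nadk2, the mitochondrial NAD kinase, and Fnip1, a folliculin partner in nutrient sensing, also had HS_AOS above all other libraries, with differences of 0.57 and 0.64. Each of these 5 genes passed for AOS in HS, with adjusted p from 0.0145 to 0.0168.

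Slc22a5, the carnitine transporter OCTN2 that supplies carnitine for fatty acid import into mitochondria (chromosome 11, 53864542 to 53891796), was separated from its untreated group in both arms. It stood at 74.06, 74.93 and 85.94 FPKM in control, 62.69, 62.45 and 65.07 in AOS, 95.33, 71.39 and 73.10 in HS and 107.28, 119.81 and 98.17 in HS_AOS. The AOS libraries were the lowest of the 12 and the HS_AOS libraries the highest, so that neither overlapped HS or control. The difference was 0.74 (SE 0.155, adjusted p = 0.14), from a rise of 0.44 in HS (adjusted p = 0.0461) and a value of -0.30 in control (adjusted p = 0.674).

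In 3 of the genes above 0 another group stood apart. Eps8l3, of the EPS8 family of actin regulators, had 1.61, 1.36 and 1.34 FPKM in HS, below every other library, and its HS_AOS values of 2.64, 2.93 and 2.18 lay within the range of the control and AOS libraries. Nat2, an arylamine N-acetyltransferase, was also lowest in HS, at 13.55, 10.68 and 12.76 FPKM. For Tgoln1, a protein of the trans-Golgi network, AOS was the group farthest from the rest, at 51.61, 42.86 and 57.80 FPKM, but it overlapped HS; the near-identical Tgoln2 makes its reads uncertain. Pdpr, a subunit of pyruvate dehydrogenase phosphatase, and Ubr3, a RING ubiquitin ligase, complete the 12, with differences of 0.52 and 0.58.

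Among the 12 genes below 0, Hist2h2aa1, a replication-type histone H2A, had the lowest value. It stood at 193.09, 134.65 and 141.65 FPKM in control, 187.71, 196.88 and 184.35 in AOS, 177.30, 201.57 and 224.15 in HS and 74.93, 118.63 and 100.79 in HS_AOS. The HS_AOS libraries were below the other 9. Its difference was -1.34 (SE 0.219, 95% interval -1.81 to -0.87, adjusted p = 0.116), and AOS lowered it in HS (-1.05, adjusted p = 0.0145). Its copy Hist2h2aa2 makes the reads of this gene uncertain.

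Defb29, a beta-defensin (chromosome 2, 152538714 to 152540041), had the second lowest value of the 12. It stood at 212.91, 209.65 and 175.48 FPKM in control, 232.01, 247.40 and 244.40 in AOS, 252.84, 201.87 and 254.73 in HS and 108.03, 122.62 and 128.65 in HS_AOS. The HS_AOS libraries were far below the rest, and the AOS libraries lay above control without overlap. The difference was -1.25 (SE 0.27, adjusted p = 0.147), from -0.97 in HS (adjusted p = 0.0258) and 0.28 in control (adjusted p = 0.681).

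Mov10, an RNA helicase that restrains retroelements (chromosome 3, 104794828 to 104818619), was an exception, since AOS and control stood apart and HS_AOS and HS did not. It stood at 6.48, 6.85 and 6.94 FPKM in control, 10.54, 9.95 and 11.31 in AOS, 8.46, 8.22 and 8 in HS and 8.54, 8.48 and 7.28 in HS_AOS. The 3 AOS libraries were the highest of the 12 and the 3 controls the lowest, while HS and HS_AOS overlapped. Its AOS effect was 0.58 in control (adjusted p = 0.0619) and -0.02 in HS (adjusted p = 0.904), and the difference was -0.60 (SE 0.12, adjusted p = 0.14).

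Ascc1, a subunit of the ASCC DNA alkylation repair complex, had its AOS libraries at 96.86, 97.47 and 96.35 FPKM, above the controls at 72.47, 77.05 and 75.90. In HS_AOS it was at 80.69, 78.99 and 66.23 FPKM, below HS at 88.84, 106.28 and 93.28. The groups thus separated in opposite directions in both arms, with a difference of -0.71 (SE 0.158, adjusted p = 0.16). Cideb, which acts in lipid droplets and in lipoprotein assembly, and Trmt112, a cofactor of methyltransferases, had the same crossed form, with no overlap in either arm and differences of -0.65 and -0.62.

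In Mydgf, a secreted growth factor, Rps19bp1, Sphk2, a sphingosine kinase, Mrpl54, of the mitochondrial ribosome, and Map2k2, the kinase MEK2, the HS_AOS libraries lay below the other 9. Their differences ran from -0.64 for Mrpl54 to -0.51 for Map2k2, and all 5 fell with AOS in HS. Mrpl54 was the 1 gene of the 24 with both effects below 0, at -0.79 in HS and -0.15 in control. Trim47, a ubiquitin ligase, was instead set apart by HS, with 34.57, 35.61 and 30.51 FPKM against 17.20 to 27.35 in the other 9 libraries. Its difference was -0.88 (SE 0.188).

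**Figure D2:**
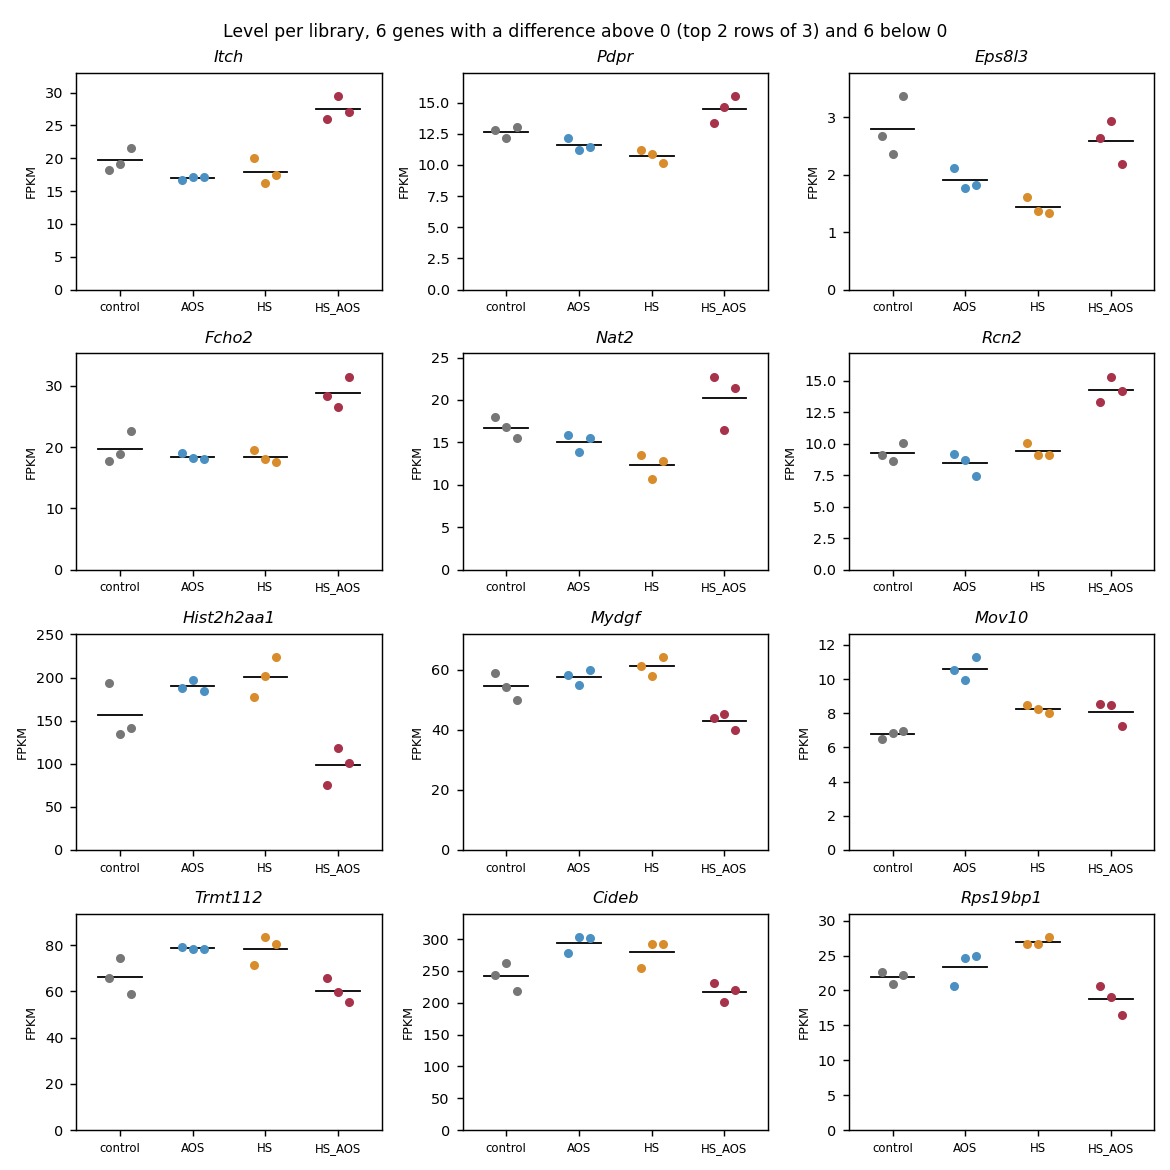
Each panel shows FPKM in the 12 libraries for 1 gene, with 1 point per library and a bar at the mean of 3; the y axes start at 0. The first 6 panels are the genes above 0 and the last 6 those below 0 with the smallest p: HS_AOS is the high group in Itch, Pdpr, Fcho2 and Rcn2, HS the low group in Eps8l3 and Nat2, and AOS the high group in Mov10.

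HS_AOS was also the group farthest from the other 3 means more often than any other group among all genes with an unadjusted p under 0.05. This held for 853 of the 1334 genes above 0 (63.9%) and for 339 of the 500 below 0 (67.8%), against 38.8% of all tested genes. AOS was the farthest group in 27.2% of all genes, HS in 19.1% and control in 14.9%. The genes under that p were chosen by a contrast that includes HS_AOS, so their shares describe them and support nothing.

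The median difference over all genes was 0.10, against 0.01 without control 3, 0.01 after quantile normalization and -0.00 after median scaling. List medians below are to be read against 0.10. Counts of members are to be read against the shares of all genes, of which 64% lay above 0 and 36% below. At an unadjusted p under 0.05 these shares were 11.1% and 4.17%, and AOS in HS raised 1.31% and lowered 1.4%. Of the 37 lists, leaving out any 1 of the 12 libraries moved the median by no more than 1.5 times in 2, fatty acid oxidation and HECT ligases, and left its sign as it was in 15. The lists were chosen with earlier results of these data known, no list test was run, and 0 members of any list passed the difference.

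Fatty acid oxidation and PPARA targets had the highest median of the 25 pathway lists, 0.48 over 34 of 36 members tested, with 27 above 0. At an unadjusted p under 0.05, 10 lay above 0 and 0 below, against 11.1% and 4.17% of all genes, and 1 member passed for AOS in HS. That member was Ppara itself, the receptor (chromosome 15, 85734910 to 85806851). It stood at 8.90, 10.96 and 12.13 FPKM in control, 10.56, 11.46 and 10.45 in AOS, 12.75, 9.96 and 12.81 in HS and 25.92, 20.50 and 18.07 in HS_AOS. HS_AOS was above all other libraries, and the other 3 groups overlapped. The difference was 0.77 (SE 0.2, adjusted p = 0.183), AOS raised Ppara in HS by 0.80 (adjusted p = 0.0162), and its value in control was 0.03 (adjusted p = 0.949).

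In enzymes of the pathway, control 3 and HS 1 were often high within their groups. Cpt1a, the carnitine palmitoyltransferase of fatty acid entry into mitochondria, stood at 96.33, 88.52 and 121.35 FPKM in control, 88.20, 101.41 and 78.69 in AOS, 118.50, 86.15 and 73.26 in HS and 143.03, 122.61 and 111.81 in HS_AOS. HS 1 reached into the HS_AOS range, and control 3 was the highest control. Its difference was 0.64 (SE 0.228, adjusted p = 0.232). Among the 10 members with an unadjusted p under 0.05, control 3 was the highest control in 9 and HS 1 the highest HS library in 8, and HS_AOS and HS did not overlap in 2. Among all 1334 genes above 0 at that p, control 3 was the highest control in 79.3%, HS 1 the highest HS library in 52.1%, and HS_AOS and HS did not overlap in 63.7%; over all tested genes the shares were 68.5%, 33.7% and 25.1%. The counts describe members chosen by the same contrast.

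The Cyp4a genes showed this most. Cyp4a14, a fatty acid hydroxylase and strong PPARA target, was at 8.56, 2.42 and 227.20 FPKM in control, 1.54, 1.15 and 1.23 in AOS, 68.83, 6.25 and 6.41 in HS and 57.58, 67.42 and 60.27 in HS_AOS. Control 3 and HS 1 were above all 3 HS_AOS libraries, and the AOS libraries were the lowest of the 12. The difference was 5.10 (SE 1.65, adjusted p = 0.211), and without control 3 it was 3.32. For Cyp4a10, a hydroxylase that shares sequence with Cyp4a31, the difference went from 2.22 to 1.13. The list median was 0.37 without control 3, and from 0.32 (without HS 2) to 0.63 (without HS 1) over the 12 libraries left out in turn.

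Members with an unadjusted p under 0.05 also included Ppargc1a, the coactivator of PPARA (0.61), and Hsd17b4 of peroxisomal oxidation (0.51). Others were Etfdh, which passes electrons from fatty acid oxidation to ubiquinone (0.43), and Eci2 (0.49) and Decr1 (0.59), which act on unsaturated fatty acids. These values include control 3, the highest control in 9 of the 10 members at that p. The 7 members below 0 reached down to -0.37. Among them, Rxra, the partner receptor of PPARA, had -0.08, and Acadm, the medium-chain dehydrogenase, had -0.06. The 95% interval of Acadm was -0.55 to 0.44. Fabp1 failed the filter on low values. Plin2 stands in 2 rows of the table, and the row matched to its symbol did not pass the filter.

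**Figure D3:**
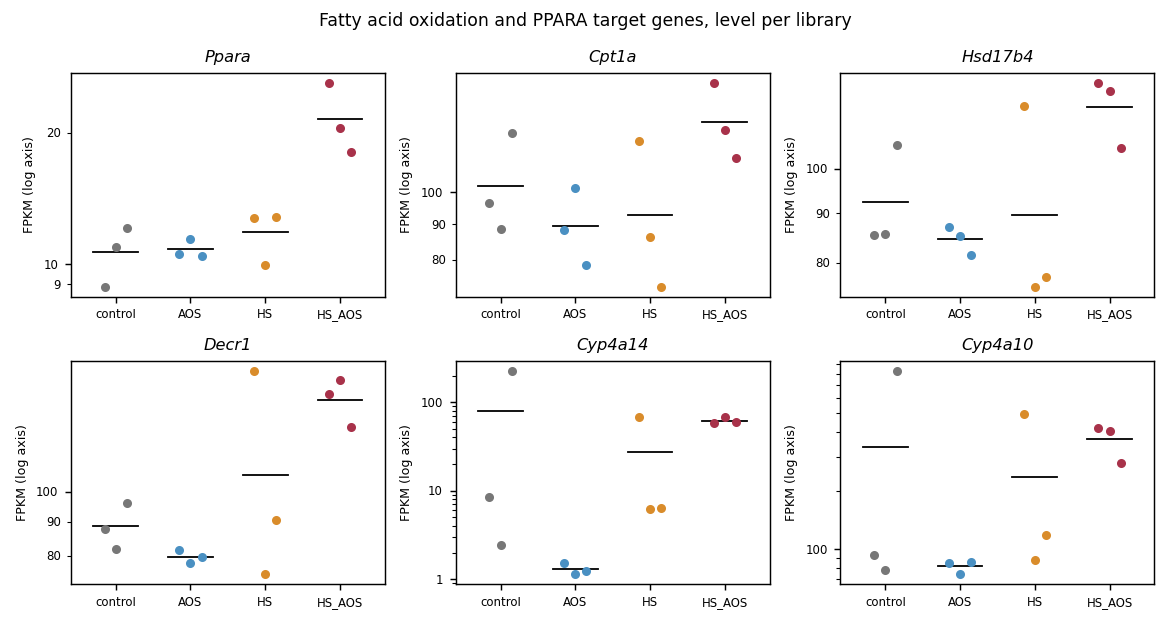
FPKM on log axes for 6 genes of fatty acid oxidation, with 1 point per library and a bar at the mean of 3 in each of the 4 groups. HS_AOS is above all other libraries in Ppara, while in Cyp4a14 and Cyp4a10 control 3 and HS 1 are above all HS_AOS libraries, and in Decr1 HS 1 is.

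Other lipid lists lay near the median of all genes. Triglyceride assembly and lipolysis had a median of 0.04 over 19 members, with 2 above 0 at an unadjusted p under 0.05. Mttp, which loads triglyceride on apolipoprotein B, rose with AOS in HS by 0.77 (adjusted p = 0.0168), with 9.25, 11.60 and 9.10 FPKM in HS_AOS against 6.10, 5.57 and 4.59 in HS. In control it was at 5.68, 7.91 and 5.32 FPKM and in AOS at 5.97, 6.76 and 5.77, and the difference was 0.79 (SE 0.198, adjusted p = 0.176). Lpin1, a phosphatidate phosphatase, had 0.78. Fatty acid synthesis had a median of 0.07 over 17 members with none at an unadjusted p under 0.05, and cholesterol synthesis -0.00 over 22.

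Glucose handling had a median of 0.40 over 15 members, with 14 above 0, and 0.14 without control 3 or 0.24 without HS_AOS 2. Foxo1, a transcription factor that insulin inhibits, and Insr, the insulin receptor, both had a difference of 0.46. Foxo1 was at 13.32, 13.03 and 12.83 FPKM in HS_AOS against 8.57 to 11.89 in the other 9 libraries. Pck1, the rate-limiting enzyme of gluconeogenesis, had 1.09 (SE 0.519), with HS 1 at 2395 FPKM beside 2660, 2108 and 1845 in HS_AOS and 775 and 799 in HS 2 and 3. Slc5a2, the main glucose transporter of the proximal tubule, had -0.13 (95% interval -0.74 to 0.49).

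Proximal tubule transporters had a median of 0.21 over 30 members, 0.25 without control 3 and 0.12 without control 2. At an unadjusted p under 0.05, 6 lay above 0 and 1 below, against 11.1% and 4.17% of all genes. AOS in HS raised 2 members, against 1.31% of all genes. These 2 were Slc4a4, the basolateral bicarbonate exporter, and Slc9a3, the apical sodium proton exchanger, which act together in bicarbonate reabsorption. Slc4a4 was at 119.97, 107.32 and 126.31 FPKM in control, 101.39, 89.97 and 103.72 in AOS, 114.51, 110.70 and 104.54 in HS and 120.05, 175.44 and 165.67 in HS_AOS. AOS lay below control and HS_AOS above HS, both without overlap, and HS_AOS 1 lay within the control range. Its difference was 0.72 (SE 0.166, adjusted p = 0.167), and that of Slc9a3 was 0.45 (SE 0.149, adjusted p = 0.213).

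Slc6a19, the neutral amino acid transporter B0AT1, had 1.23 (SE 0.421), and 0.78 without control 3, whose 163.36 FPKM was the highest of the 12 libraries. Abcc2, an apical efflux pump, had 0.89, Slc13a1, the sulfate transporter, 0.59, and Cubn, a receptor of protein uptake, 0.33. Slc22a12, the urate transporter, lay below 0 at -0.63. Its value without control 3, which was at 463 FPKM against 834 to 1134 in the other 11, was -0.29.

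HECT ubiquitin ligases had a median of 0.25 over 20 members. Of these, 18 lay above 0, against 64% of all genes, and 7 did so at an unadjusted p under 0.05, against 11.1%. AOS in HS raised 2 members, among them Itch, described above, against 1.31% of all genes. Nedd4, a ligase that acts on sodium channels and growth factor receptors, stood at 76.20, 75.89 and 74.52 FPKM in HS_AOS and 67.28, 55.72 and 60.96 in HS, with no overlap. It was at 60.02, 55.57 and 54.39 FPKM in AOS and 55.63, 58.51 and 85.95 in control, where control 3 was the highest of the 12 libraries. Its difference was 0.51 (SE 0.185, adjusted p = 0.241), and 0.31 without control 3. Ube3c, Birc6 and Huwe1 had 0.47, 0.37 and 0.27. These genes have a median GC content of 46.9%, and the list median was 0.10 once the trend with GC content and length was removed from each library. With array weights and that trend removed it was 0.01, where that of all genes was 0.01. The 24 splicing and RNA-binding factors, at a median GC content of 42.9%, were all above 0, with a median of 0.17, which was 0.09 without control 3, -0.01 with array weights and 0.06 with that trend removed, where that of all genes was 0.09.

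Clock genes varied within groups. The core clock had a median of 0.45 over 16 members and the clock output factors 0.47 over 9. Without control 3 both were 0.26. That of the output factors was 0.18 without HS_AOS 1 and 0.72 without HS_AOS 2. With array weights the 2 medians were 0.10 and 0.08, where that of all genes was 0.01. Hlf, a PAR bZIP output factor (chromosome 11, 90336535 to 90390917), rose with AOS in HS by 0.72 (adjusted p = 0.0153). It was at 43.94, 30.69 and 32.56 FPKM in HS_AOS against 18.54 to 25.74 in the other 9 libraries, with a difference of 0.67 (SE 0.175, adjusted p = 0.186). Rora, a nuclear receptor that activates Arntl, also rose in HS, by 0.43 (adjusted p = 0.0322), with a difference of 0.46. Nfil3, a repressor of the same sites as Hlf, fell with AOS in HS (-1.85, adjusted p = 0.033). It was at 1.73, 2.24 and 2.43 FPKM in HS_AOS and 5.29, 16.12 and 12.21 in HS, and its difference was -1.45 (SE 0.573, adjusted p = 0.262).

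In other clock genes control 3 differed from controls 1 and 2. Dbp was at 2.76, 6.90 and 90.60 FPKM in control, 25.98, 36.46 and 11.51 in AOS, 11.21, 12.15 and 7.33 in HS and 165.61, 44.43 and 40.08 in HS_AOS. Ciart, a repressor of the clock, was at 0.33, 0.44 and 18.01 FPKM in control and 21.74, 4.87 and 5.14 in HS_AOS. Arntl, which peaks in the opposite phase, was at 12.54, 10.05 and 2.71 FPKM in control and 0.49, 4.33 and 3.03 in HS_AOS. Control 3 lay within the HS_AOS range in all 3 genes. The differences were 1.88, 2.44 and -1.43, and without control 3 they were 0.52, 1.18 and -0.85. The labels give no time of day of collection.

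Heat shock chaperones had the lowest median of the pathway lists, -0.39 over 25 members. Of these, 23 lay below 0, against 36% of all genes, and 4 did so at an unadjusted p under 0.05, against 4.17%. The median was -0.26 without control 3, -0.61 without HS 1 and -0.14 without control 3, HS 3 and HS_AOS_FMT 2. Hspe1, the mitochondrial cochaperone HSP10 (chromosome 1, 55088148 to 55091317), was at 314.16, 327.48 and 247.83 FPKM in control, 323.66, 339.54 and 326.38 in AOS, 326.19, 336.22 and 392.01 in HS and 242.55, 229.64 and 270.65 in HS_AOS. HS_AOS was below HS without overlap, and control 3 lay within the HS_AOS range. AOS lowered Hspe1 in HS (-0.50, adjusted p = 0.033), and the difference was -0.67 (SE 0.157, adjusted p = 0.167).

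Hspb1, a small heat shock protein, also fell in HS (-2.07, adjusted p = 0.0319). It was at 17.05, 29.57 and 40.98 FPKM in control, 20.59, 16.19 and 23.81 in AOS, 28.77, 94.29 and 127.23 in HS and 16.38, 13.66 and 18.30 in HS_AOS. HS 2 and HS 3 were high and HS 1 was not, and the other groups overlapped. Its difference was -1.63 (SE 0.618, adjusted p = 0.249). HS 2 and HS 3 were above HS 1 in all 4 members with an unadjusted p under 0.05, which also included Hsf1, the transcription factor of the response (-0.39), and Ahsa1, a cochaperone of HSP90 (-0.51). That order held in 67.4% of the 500 genes below 0 at that p and in 40.8% of all tested genes. Hspa1a showed the same split, at 3.43, 68.65 and 48.61 FPKM in HS, with a difference of -1.85 (95% interval -4.48 to 0.79), and its reads are uncertain beside those of its copy Hspa1b. HS 3 was rich in adrenal and adipose transcripts (Cyp11b1 at 38.3 FPKM, adipose sum 1806 FPKM). In HS 2 Cyp11b1 was at 0.14 FPKM and the adipose sum at 129 FPKM. The part of these tissues in the split was not tested.

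The unfolded protein response had a median of -0.21 over 24 members. At an unadjusted p under 0.05, 1 lay above and 4 below 0, against 11.1% and 4.17% of all genes. That median was -0.07 without HS 3, -0.13 without HS_AOS 1, -0.14 without control 3, -0.31 without HS 1, -0.33 without HS_AOS 3 and -0.35 without control 2, and -0.06 without control 3, HS 3 and HS_AOS_FMT 2. NRF2 and heme targets had a median of 0.09 over 18, with 3 below 0 at an unadjusted p under 0.05, against 4.17% of all genes. These were Ftl1, the ferritin light chain (-0.50), Sod1, the cytosolic superoxide dismutase (-0.44), and Gstm1, a glutathione transferase (-0.80). Proteasome subunits (30), cytosolic ribosomal proteins (46) and respiratory chain subunits (41) had medians of -0.06, -0.09 and -0.04, and glycolysis 0.05 over 14. With the GC and length trend removed, the first 3 of these were -0.03, 0.08 and 0.10, where that of all genes was 0.09. AOS in HS lowered 3 respiratory chain subunits and raised 0, against 1.4% and 1.31% of all genes. Interferon-stimulated genes had -0.12 over 23, and neither they nor chemokines and NF-kB targets (0.14 over 17), extracellular matrix genes (0.17 over 23) or tubular injury markers (0.20 over 12) had a member at an unadjusted p under 0.05. For the integrated stress response (17) the median was -0.01, with 2 members above 0 at an unadjusted p under 0.05.

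Without control 3, several of these medians crossed 0. That of tubular injury markers went from 0.20 to -0.21, that of extracellular matrix genes from 0.17 to -0.08, that of chemokines from 0.14 to -0.12 and that of cell cycle genes from 0.30 to -0.06. Immediate early genes went from -0.01 to -0.49 and interferon-stimulated genes from -0.12 to -0.50. Glucocorticoid targets and metallothioneins went from 0.46 to 0.09. Other medians kept their direction without it. Among these were fatty acid oxidation (0.37), HECT ligases (0.22), proximal tubule transporters (0.25), both clock lists (0.26), glucose handling (0.14), heat shock chaperones (-0.26) and the unfolded protein response (-0.14).

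Among marker lists, erythroid (-0.75 over 8 tested) and adipose genes (-0.66 over 10) had the lowest medians, -0.33 and -0.16 without control 3. The adipose median turned to 0.54 without HS 3, 0.11 without AOS 3 and 1.18 without control 3, HS 3 and HS_AOS_FMT 2, and was -1.72 without HS 2. The erythroid median was -0.01 without HS_AOS 1 and -0.05 without control 1. Distal convoluted tubule markers had 0.41 over 11, podocytes 0.33 over 10, intercalated cells 0.31 over 11 and macrophages 0.21 over 14, against -0.01, 0.03, 0.18 and -0.12 without control 3. Proximal tubule markers had -0.18 over 14, and 0.09 without control 3. Only 4 of 16 adrenal and 2 of 16 testis markers were tested. The testis transcripts Prm1, Tnp1, Tnp2 and Prm2 were between 3.6 and 14.51 FPKM in all 3 controls and at 0 in the other 9 libraries, and the filter left them out. Their part, and that of the other cell types, in the differences above was not tested.

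**Figure D4:**
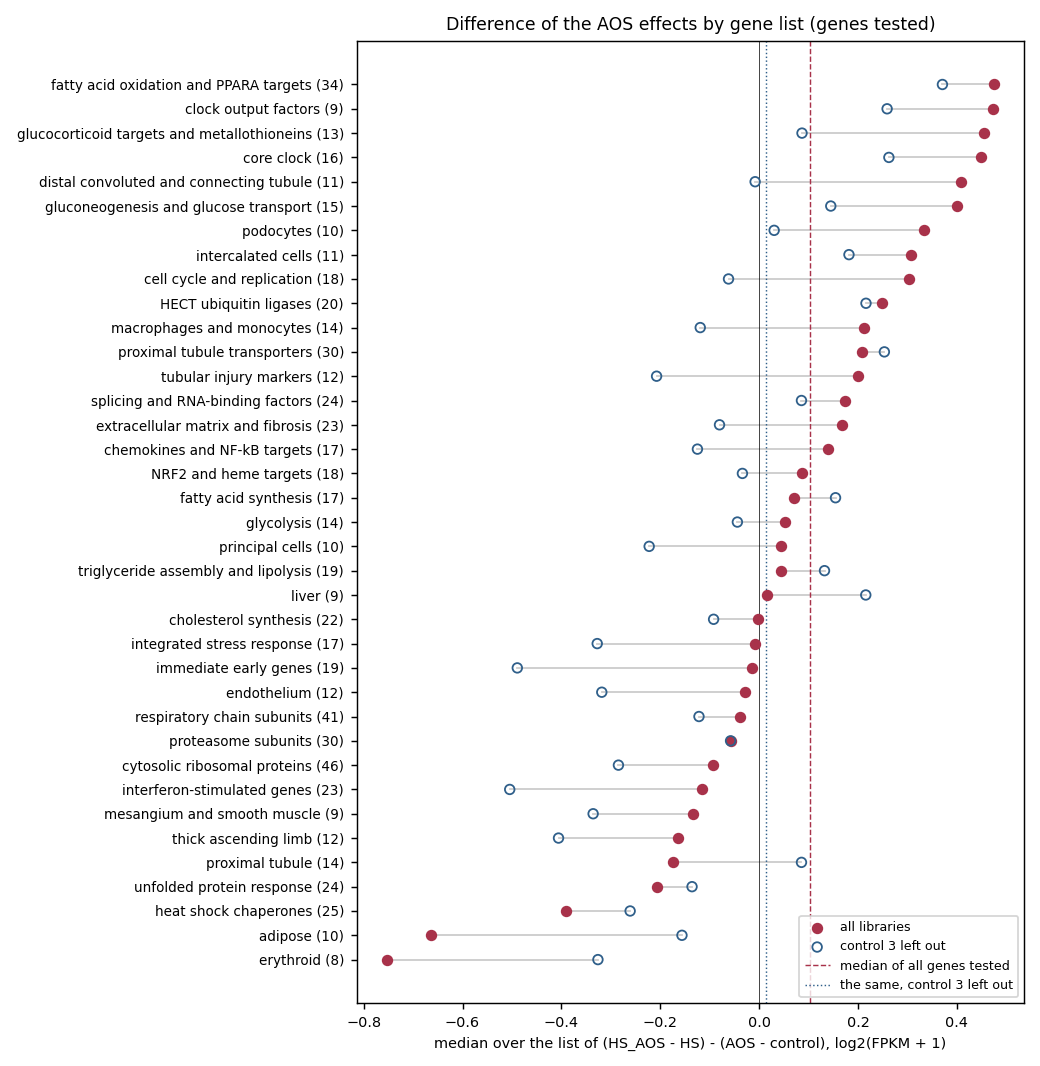
Median over each list of the difference of the AOS effects, log2(FPKM + 1), for the 37 lists with at least 5 tested genes, with all libraries (filled) and without control 3 (open); dashed and dotted lines mark the medians of all genes, 0.10 and 0.01. Fatty acid oxidation is highest and erythroid lowest with all libraries, and long grey lines mark lists whose median rests on that library.

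The filter decided which genes could pass. It kept 206 genes fewer than one that counts the controls too. With no filter 182 genes passed the difference, of which 147 are left out by the filter used, and in 144 of the 182 the control mean was the highest of the 4 groups. With the controls counted, 9 genes passed, 7 of them outside the filter used. At its edge, Zfp28 was tested with exactly 3 of the 9 libraries at or above the limit and the lowest of these at 1 FPKM, and Kif23 was not, at 0.99.

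The difference also ran with base composition. Its Spearman correlation with the GC content of the transcript was -0.41 over 11862 genes, which are not independent. That of the AOS effect was -0.473 in HS and 0.021 in control. Genes with an unadjusted p under 0.05 had a median GC content of 44.4% above 0 and 55.1% below 0, against 49.8% for all. In 10 bins of genes the median difference went from 0.25 at 39.8% GC to -0.11 at 59.6%. The deviation of single libraries from the gene means correlated with GC content at 0.075, -0.298 and -0.619 in HS_AOS 1, 2 and 3, and at 0.172 to 0.294 in HS. Once that trend was taken out of every library, together with one in transcript length, 0 genes passed the difference and 10 passed for AOS in HS. Itch, Ppara and Hist2h2aa1 then had differences of 0.61, 0.78 and -0.90. Other named genes moved more: Mrpl54 went from -0.64 to -0.24 and Map2k2 from -0.51 to -0.32. The part of GC content in the results was not tested further.

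**Figure D5:**
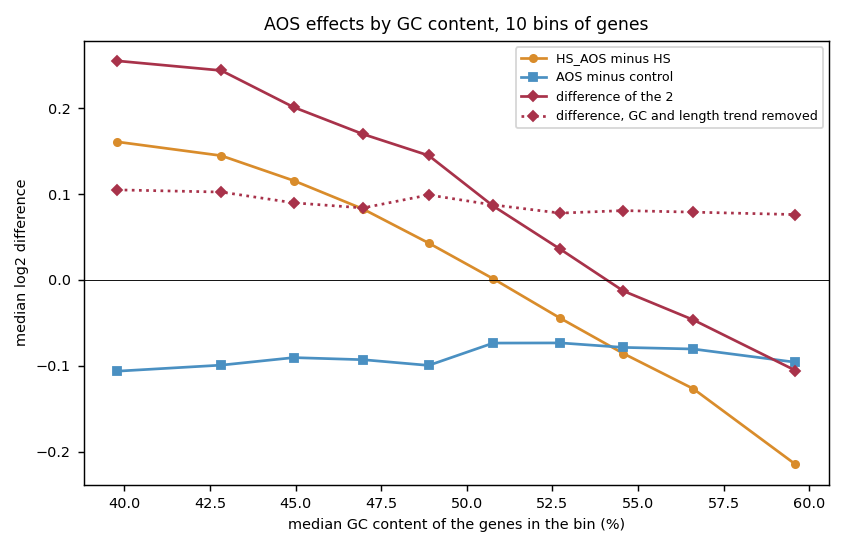
Median log2(FPKM + 1) difference in 10 bins of 1186 or 1187 genes, ordered by the GC content of their transcripts. The AOS effect in HS and the difference of the 2 effects fall with GC content, from 0.16 to -0.21 and from 0.25 to -0.11, the AOS effect in control stays between -0.11 and -0.07, and the difference is between 0.08 and 0.10 in all bins once each library's trend is removed.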

How the data were processed

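Kidney RNA from 18 samples in 6 groups of 3 was sequenced. The submitters' processing notes name Bowtie 0.12.2 and mm10. The sources used here give neither the program for gene values nor its annotation or strandedness. The authors deposited 1 FPKM value per gene and sample. The unit was read from the values: FPKM times transcript length gave almost equal totals over samples (coefficient of variation 0.93%, plain sums 4.29%). No counts are given. Steps among low values would stand for 8.7 to 12.4 M reads per library if 1 step is 1 read, but at most 42.6% of the values lay within 0.1 step of one, so reads were not recovered.

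The log2(FPKM + 1) values of all 18 samples were fitted with a mean for each group in limma 3.58.1 under R 4.3.3 (eBayes, trend and robust set, 12 residual degrees of freedom). P-values are two-sided, from limma, and adjusted over all 11985 genes by the Benjamini-Hochberg method, with a threshold of 0.05. Named genes were those passing, or else the 12 smallest p in each direction whose highest group averaged 2 FPKM or more and no predicted or pseudogene symbol, and the 3 smallest p in each of 41 lists. Other list members with values in the text were chosen after their values were seen. The members and lists were chosen with earlier results of these data known. GC content came from GENCODE transcripts and positions from RefSeq on GRCm38, the build of mm10. The script was tested on simulated data. The alternatives were 26 planned settings and 4 added with array weights. A few list members are not reported here by name.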

Additional observations from a re-analysis of the deposited data

How the results depend on the processing

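Counts are of genes passing for the difference of the AOS effects, for AOS in HS and for AOS in control, which were 0, 325 and 0. With the replicate block they were 0, 90 and 0. Of 18 same-numbered pairs of libraries, 6 correlated above 0.1, and 6 of 12 libraries correlated best with their own number. Correlations ran from -0.34 to 0.22 in same-numbered pairs and from -0.32 to 0.37 in the others. With 3 libraries a group, these values cannot decide whether the numbers pair samples. The 4 groups alone gave 0, 0 and 0, no filter 182, 131 and 231, at least 5 FPKM 0, 399 and 1, and a filter counting the controls 9, 310 and 8. Quantile normalization gave 0, 499 and 1, median scaling 0, 326 and 1, and removal of the GC and length trend 0, 10 and 1, or 0, 4 and 1 with the block. Without control 3, HS 3 and HS_AOS_FMT 2 all 3 were 0, and a log2 difference of at least 1 left 10 genes for AOS in HS. Array weights gave 2203, 4676 and 3. Chosen after seeing the data, array weights gave 1090, 3514 and 3 without control 3 and 1205, 3087 and 1 with the 4 groups alone. Also chosen after seeing the data, they gave 0, 21 and 0 without the 3 libraries, and 46, 1202 and 3 with the trend removed. Of these 5 weighted fits, 3 stopped before convergence. These were the fits without control 3, with the 4 groups alone and without the 3 libraries. Leaving out 1 library at a time gave 0 to 9 genes for the difference, 0 to 853 for AOS in HS and 0 to 1 for AOS in control. The cause of these changes was not tested. The 24 genes with the smallest p kept the sign of their difference in every setting run for them, but not its size. With array weights and the GC and length trend removed, Trmt112 went from -0.62 to -0.22 and Fnip1 from 0.64 to 0.34. Others grew in some settings, such as Slc22a5 from 0.74 to 0.88 with array weights. There were 29 settings for 23 genes and 28 for Eps8l3, which failed the filter at 5 FPKM. All 24 were among the 2203 genes that passed with array weights. They were chosen by the same contrast on the same libraries, so these counts describe them and support nothing. With 3 libraries a group and no counts, differences under about 0.41 log2 units were within the interval of a typical gene.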
